A study of Mus musculus with 24 samples.

Results

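The Y RNAs Rny1 and Rny3 and the gene of their binding protein La, Ssb, were followed through 15 murine surface RNA libraries and 9 libraries of total RNA. These 3 genes were chosen by symbol, out of 33967 genes that all surface tables listed and 55335 genes in the tables of total RNA. All 3 were listed in every table. On the surface the values of the transcripts of each symbol were summed, which joined 6 transcripts of Ssb and left the single transcript of each Y RNA as it was.

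Y RNAs are short non-coding RNAs made by RNA polymerase III. They fold into a stem with an internal loop, are held by the protein Ro60, and have been linked to RNA quality control and to the start of DNA replication. Rodents carry Rny1 and Rny3. La binds the run of uridines with which polymerase III ends its products, shields them from exonucleases and helps them to fold, and Ro60 and La are known as autoantigens of lupus and Sjögren's syndrome.

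Surface RNA came from WT C57BL/6 mice, with 3 libraries for each of 5 cell types, namely B cells, T cells and natural killer (NK) cells of the spleen, monocytes of the bone marrow, and bone marrow stem and progenitor cells (HSPCs). Each type was isolated with magnetic beads, T cells with a CD8 kit and HSPCs by depletion of lineage-positive cells, so that HSPCs were what remained and not a positively selected population. The assay, AMOUR, fixes intact cells, binds them to lectin-coated beads, anneals oligonucleotides that carry a T7 promoter and a random end to exposed RNA, and copies that RNA in place with T7 RNA polymerase. The study states that no existing method, AMOUR included, fully removes the risk of contamination by RNA from inside cells. In a human cell line it found RNY1 enriched by AMOUR but RNY3 enriched in cell lysate. How much of the values below comes from inside cells was not tested. Total RNA came from peripheral blood mononuclear cells (PBMCs) of wild type mice, with 3 libraries in each of the treatment groups ct, WT and Y, names that the labels do not explain. The study calls its murine surface replicates independent and biological, without saying whether each was taken from another animal, and the labels say nothing of this for PBMCs, where p-values then measure only the spread between libraries, which may be technical. The ages of the animals are not given in the sources used here.

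The sequences of the Y RNAs are shown because their shared words and their last bases bear on what the libraries can tell apart. Capitals mark the 3 stretches of at least 8 bases that Rny1 and Rny3 share in the same order. The sequences were read from the GENCODE M21 transcripts of GRCm38, written as DNA.
Rny1: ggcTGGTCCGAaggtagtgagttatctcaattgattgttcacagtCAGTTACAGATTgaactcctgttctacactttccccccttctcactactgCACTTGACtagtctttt
Rny3: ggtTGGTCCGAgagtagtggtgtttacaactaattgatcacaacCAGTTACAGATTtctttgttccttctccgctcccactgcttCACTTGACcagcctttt

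Rny1 is 112 bases long and Rny3 102, and 81 positions of an alignment of 112 columns were identical. Both end in a run of 4 T, the kind of end that La is known to bind. The shared words start at bases 4, 46 and 96 of Rny1 and at bases 4, 45 and 86 of Rny3, and lie near both ends and in the middle of the RNA. Both genes are annotated as misc_RNA and lie as neighbours on mouse chromosome 6, Rny3 at chr6:47781624-47781725 on the plus strand and Rny1 at chr6:47788069-47788180 on the minus strand (GRCm38). The pseudogene Rpl31-ps7 lies in the 6343 bases between them, and no annotated gene overlaps either of them. Ssb lies at chr2:69861562-69871846 on the plus strand, and its last 649 bases overlap Mettl5, which runs the other way. Whether the counting kept the strands apart is not given in the sources used here, so that reads of this stretch may belong to either gene.

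A further sequence is shown because it shares more words of 20 bases with Rny1 than any other annotated transcript does. Capitals mark its longest stretch in common with Rny1.
Gm26168: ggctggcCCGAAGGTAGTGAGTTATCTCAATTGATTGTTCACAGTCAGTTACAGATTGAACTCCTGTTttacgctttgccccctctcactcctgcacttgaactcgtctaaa

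Gm26168, at chr6:122623547-122623658 on the plus strand, was identical to Rny1 over 61 consecutive bases and lacks the terminal run of T. Of the 82 words of 31 bases in Rny1, the word length that Kallisto uses by default, 31 also occur in Gm26168, whereas Rny3 shared none with any other annotated transcript. The copy itself was scarce, at most 0.324 TPM (transcripts in 1000000) in any surface library and between 1.97 and 11.05 expected counts in a PBMC library. In PBMCs the expected counts of Rny3 were whole numbers in 9 of 9 libraries, within 0.005, and those of Rny1 in 0 of 9, and RSEM gives counts that are not whole where it shares reads among transcripts.

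The libraries differed in makeup, and this bears on every surface level. Ribosomal RNA together with 3 transcripts that always carry the same values and are annotated as miRNA (Gm55936, Gm55094 and Gm55118) took between 86.9% and 91.0% of TPM in HSPCs, between 72.7% and 74.8% in B cells, between 65.5% and 67.4% in NK cells, between 57.5% and 64.6% in T cells and between 49.4% and 50.9% in monocytes. Protein-coding RNA took 17.6% ± 0.624 of TPM in monocytes (mean ± SD, n = 3, as below) and between 0.645% and 2.96% in the other 12 libraries. Monocytes were also sequenced on another platform than the other 4 types, so that platform and cell type cannot be told apart there. Summed marker genes were highest in the cells they mark for 4 of the 5 types. Those of HSPCs reached 10.7 to 16.7 TPM in HSPCs but 29.6 to 33.1 TPM in monocytes, and 6 neutrophil markers summed to between 1597 and 1834 TPM in monocytes against at most 122.2 TPM elsewhere, all 6 of them above 0 there. The 4 platelet markers, all above 0 there as well, summed to between 81.0 and 117.4 TPM in monocytes and to at most 30.99 TPM elsewhere. In HSPCs the neutrophil markers came to between 39.7 and 122.2 TPM, above the 10.7 to 16.7 TPM of the HSPC markers. The platelet markers came to between 17.0 and 30.99 TPM in HSPCs. The part of these markers in the values of monocytes and HSPCs was not tested. TPM keeps no depth, so the depth of the surface libraries is unknown and no counting intervals can be given for them.

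The first question was how abundant the Y RNAs were on each cell type. As RNA was taken from many cells at once, fewer cells that carry an RNA and less of it per cell cannot be told apart. The Y RNAs were among the abundant surface RNAs of every type, with ranks between 68 and 173 for Rny1 and between 59 and 167 for Rny3 among all genes of a library. Their joint share of TPM was 0.462% ± 0.0692 in monocytes, 0.301% ± 0.0488 in NK cells, 0.231% ± 0.104 in T cells, 0.0854% ± 0.0165 in B cells and 0.0786% ± 0.0178 in HSPCs. Of the TPM of all genes annotated as misc_RNA, the class that also holds 7SL and 7SK RNA, Rny1 and Rny3 made up 20.5% ± 1.16 in monocytes and 2.92% ± 0.870 in B cells.

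Rny1 stood at 2138, 1748 and 2192 TPM in monocytes and at 1283, 1600 and 1606 TPM in NK cells. T cells gave 649.2, 1316 and 879.3 TPM, B cells 601.1, 586.4 and 387.9 TPM, and HSPCs 313.7, 466.9 and 402.3 TPM. The 3 monocyte libraries were the highest of all 15 and did not overlap any other type. T cells overlapped NK cells through their second library, and B cells overlapped HSPCs. By mean the order was HSPC, B cell, T cell, NK cell and monocyte, and the top was 5.14 times the bottom.

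Of the steps in that order, only that from B cells to T cells passed the test, by limma on log2(TPM + 1) with Benjamini-Hochberg adjustment over 12930 genes. The difference of B cells to T cells was -0.82 on the log2 scale (SE 0.280, adjusted p = 0.0373), in a comparison that called 33.7% of all genes, and it missed the threshold without any 1 of B cell replicates 2 and 3, T cell replicates 2 and 3 or HSPC replicate 3 (adjusted p at most 0.143), without the 3 monocyte libraries (0.0522), with no filter (0.0778), with a pseudocount of 10 (0.0809) and on the 3 other scales described below, which gave -0.21 to 0.26. B cells less HSPCs gave 0.40 (95% interval -0.20 to 1.01, 30.9% of genes called in that comparison), NK cells less monocytes -0.44 (-1.04 to 0.16), and T cells less NK cells -0.71 (-1.31 to -0.11, adjusted p = 0.0586, 38.5% of genes called), none of which passed. The step from NK cells to monocytes turned to 0.14 when rescaled without rRNA and the 3 same-valued transcripts, and passed with -1.31 relative to snRNA. That from T cells to NK cells did pass under a pseudocount of 0.1 and under every other scaling tried, and on those scalings B cells came to lie below HSPCs, by -0.85 to -1.41.

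Rny3 covered a wider range. Monocytes stood at 2515, 2164 and 3104 TPM, NK cells at 1164, 1732 and 1637 TPM, and T cells at 994.6, 2203 and 902.5 TPM. HSPCs gave 289.2, 492.6 and 392.2 TPM and B cells 355.1, 356.7 and 275.4 TPM. B cells and HSPCs overlapped and lay below the remaining 9 libraries, and the second T cell library reached into the range of monocytes. The order was B cell, HSPC, T cell, NK cell and monocyte, with the top 7.88 times the bottom.

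The step from HSPCs to T cells was the largest, with T cells higher by 1.71 on the log2 scale (SE 0.331, adjusted p = 0.00178, in a comparison that called 23.6% of genes). NK cells lay 0.78 below monocytes (95% interval -1.50 to -0.07 for NK cells less monocytes, adjusted p = 0.0362, 91.7% of genes called), and this step missed the threshold without NK cell replicate 1 or without monocyte replicate 1 or 3, with no filter (adjusted p = 0.0646), and when rescaled without rRNA and the 3 same-valued transcripts, where it was -0.21. B cells less HSPCs gave -0.23 (-0.94 to 0.49) and T cells less NK cells -0.25 (-0.96 to 0.47), which did not pass. On the scalings described below, B cells less HSPCs passed with -2.04 to -1.48, T cells less NK cells gave -0.85 to -0.49, not called, and T cells less HSPCs turned to between -0.80 and -0.15, none of them called. The plot of TPM by library shows these levels.

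**Figure D1:**
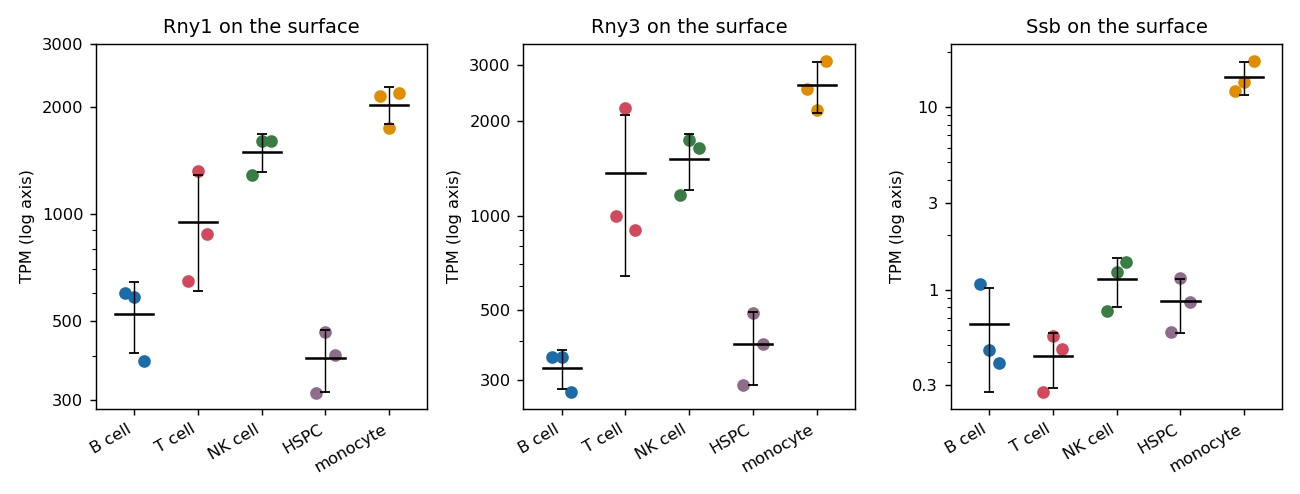
TPM of Rny1, Rny3 and Ssb in each of the 15 surface libraries, by cell type on a log axis in each panel. Points are libraries, wide bars are means and thin bars are ± SD (n = 3). The 3 monocyte libraries are the highest for Rny1 and Ssb, and Rny3 is lowest in B cells and HSPCs.

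Each of the 5 types was next compared with the average of the remaining 4. In monocytes, Rny1 was higher by 1.48 on the log2 scale (SE 0.222, adjusted p = 1.41e-05) and Rny3 by 1.88 (SE 0.262, adjusted p = 6.45e-06). This contrast called 93.7% of all genes, 89.3% as higher and 4.32% as lower, and the median gene tested was higher by 2.21. Of the 12930 genes tested, 5212 passed the filter on low values through the monocyte libraries alone and so had to be high there. Over all 33967 genes with no filter the median was 0.34, so that both Y RNAs of monocytes lay below the median with the filter and above it without. In NK cells, Rny1 was higher by 0.93 (SE 0.222, adjusted p = 0.00463) and Rny3 by 0.90 (SE 0.262, adjusted p = 0.0138), while 45.5% of genes were called, 5.64% as higher and 39.8% as lower, and the median gene stood at -0.32. Of the genes tested in NK cells, 3.88% had a higher log2 fold change than Rny1 and 4.10% than Rny3. Quantile normalization left 0.29 for both and a scale relative to snRNA 0.37 and 0.34, none of them called, and the call of Rny3 was also lost without NK cell replicate 2 (0.79, adjusted p = 0.0689).

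In B cells, Rny3 was lower, at -1.83 (SE 0.262, adjusted p = 5.47e-05), and so was Rny1, at -0.98 (SE 0.222, adjusted p = 0.00189), where 62.8% of genes were called, 54.4% as lower and 8.38% as higher, and the median gene stood at -0.41. Both lay below that median, and below the -0.06 found with no filter. Without the 3 monocyte libraries Rny1 in B cells gave -0.65 and lost its call (adjusted p = 0.0656).

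In HSPCs, the deposited TPM gave -1.48 for Rny1 (adjusted p = 5.96e-05) and -1.55 for Rny3 (adjusted p = 0.000148), with 83.0% of genes called, 81.4% as lower and 1.60% as higher, and a median of -0.67. Both signs reversed on the other scales given below. In T cells, Rny3 was higher by 0.59 (SE 0.262, adjusted p = 0.0455), where 88.5% of genes were called, 4.98% as higher, and Rny1 gave 0.05 (95% interval -0.43 to 0.52, adjusted p = 0.850). The other scalings given below turned Rny3 in T cells to -0.0040, -0.48 and, called, -0.73 relative to snRNA. The call also ended with no filter (adjusted p = 0.101) and with a pseudocount of 10 (0.0614). Without T cell replicate 2 the difference of Rny3 in T cells was 0.19 and no longer called, and leaving out any 1 of B cell replicates 2 and 3, NK cell replicates 1 and 3, HSPC replicates 1 and 3 or monocyte replicates 1 and 2 also ended the call, with differences of 0.54 to 0.61. The plot of the 5 contrasts sets these values beside the median of all genes.

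**Figure D2:**
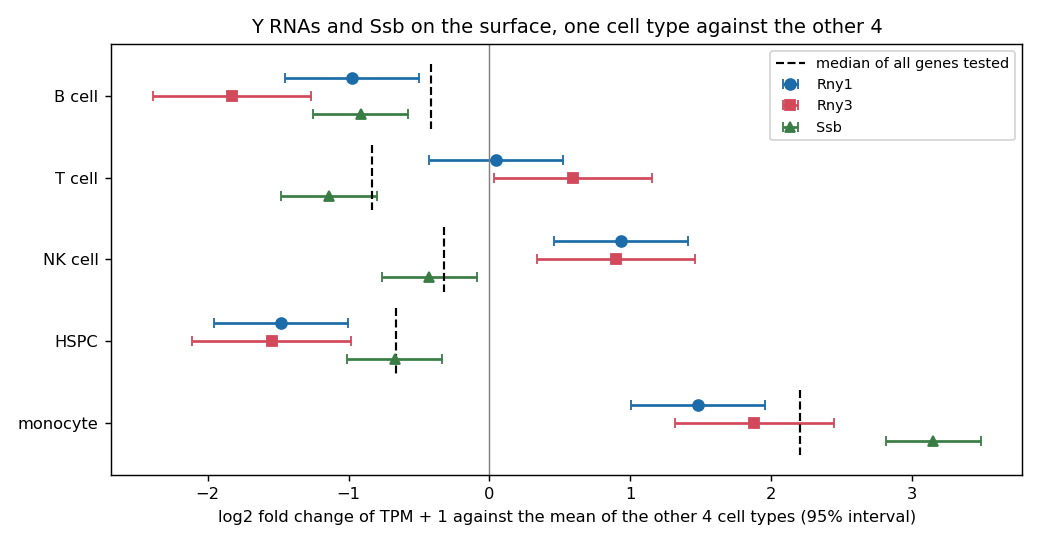
Log2 fold change of TPM + 1 for Rny1, Rny3 and Ssb in each cell type set against the average of the remaining 4 (horizontal axis), with 95% intervals from limma. Dashed lines mark the median of all 12930 genes tested. The Y RNAs lie left of this median in B cells and HSPCs and right of it in T cells and NK cells, as they do with no filter, while in monocytes they lie left of 2.21 but right of the unfiltered 0.34.

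Since rRNA and the 3 same-valued transcripts take such unequal shares, the levels were also expressed per 1000000 TPM of what remained. On that scale HSPCs moved up from the lower end of both orders, to 3577 ± 99.8 for Rny1 and 3521 ± 278 for Rny3, beside 4073 ± 457 and 5218 ± 959 in monocytes, 4495 ± 675 and 4546 ± 1033 in NK cells, 2383 ± 771 and 3378 ± 1566 in T cells and 2010 ± 418 and 1261 ± 150 in B cells. The HSPC contrasts turned from negative to 0.25 for Rny1 and 0.18 for Rny3, neither of them called. That of Rny1 in T cells turned to -0.55 (adjusted p = 0.0190). Relative to snRNA, the spliceosomal and related RNAs that made up between 2.63% and 18.1% of a library, the same reversals appeared, with 0.34 for Rny1 in HSPCs and -1.28 in T cells. Under every scaling Rny3 was lower in B cells, at -2.28 to -1.67, and so was Rny1, at -1.42 to -0.77, and both Y RNAs were higher in monocytes, Rny1 by between 0.48 and 2.00 and Rny3 by between 0.88 and 2.40. The plot of Rny1 on 3 scales shows the change of order.

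**Figure D3:**
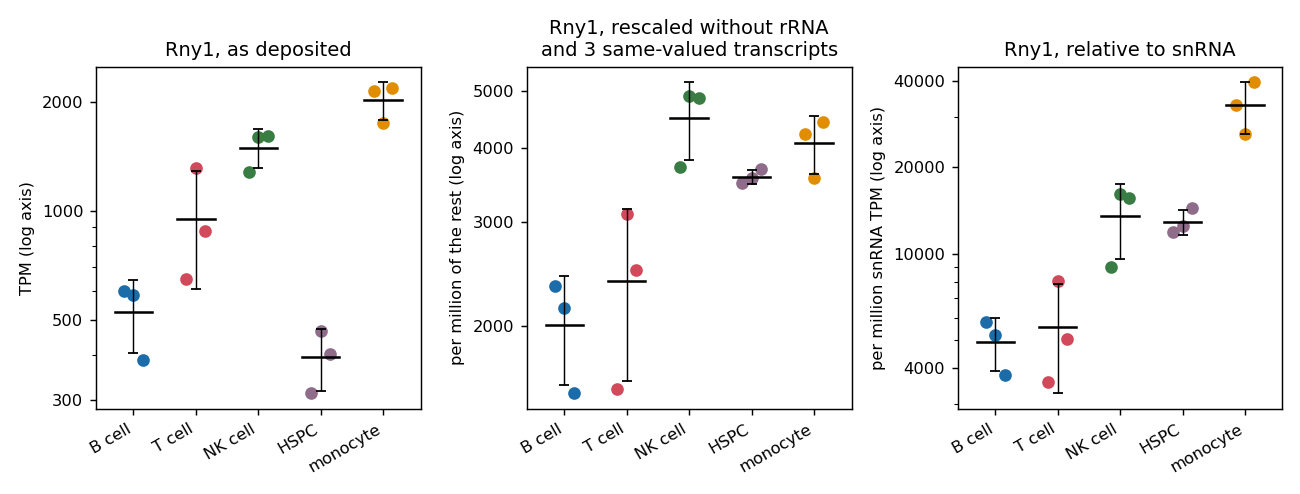
Rny1 in each surface library on 3 scales, all with log axes, namely TPM as deposited, rescaled after removal of rRNA and the 3 same-valued transcripts, and per 1000000 TPM of snRNA. Points are libraries, wide bars means and thin bars ± SD (n = 3). HSPCs are lowest on the first scale and lie near NK cells on the others, while B cells and T cells are lowest on these.

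The ratio of Rny1 to Rny3 within a library does not depend on what else fills it. B cells were the only type in which Rny1 exceeded Rny3 in every library, with ratios of 1.69, 1.64 and 1.41. NK cells gave 1.10, 0.924 and 0.981 and HSPCs 1.08, 0.948 and 1.03, and both lie around equal levels. T cells gave 0.653, 0.598 and 0.974, and monocytes 0.850, 0.808 and 0.706, so that Rny3 was the more abundant Y RNA in all 6 of these libraries. No other library overlapped B cells, since the highest ratio outside them was 1.10.

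The mean log2 ratio of B cells was 0.66, against -0.20 over the other 12 libraries, a difference of 0.85 or 1.81-fold. A two-sided exact permutation test over all 455 choices of 3 libraries gave p = 0.0022, the smallest it allows, and 0.0110 after adjustment over the 5 cell types. T cells differed by -0.55 (p = 0.0527, adjusted 0.132), monocytes by -0.40 (p = 0.152, adjusted 0.253), HSPCs by 0.06 (p = 0.815) and NK cells by 0.03 (p = 0.901), all by the same exact test. Without monocytes, the libraries of the other platform, B cells kept their call with a difference of 0.80 (adjusted p = 0.0182), and T cells gave -0.69 with an adjusted p of 0.0364. Without any 1 of the 3 B cell libraries the difference was between 0.80 and 0.94 and the adjusted exact p was 0.0549, the smallest that a group of 2 libraries allows here, so that this setting could not pass. TPM divide by an effective length, which for RNAs this short depends on the length of the fragments in a library. That length is not given for the surface libraries, and its part in the ratio was not tested.

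**Figure D4:**
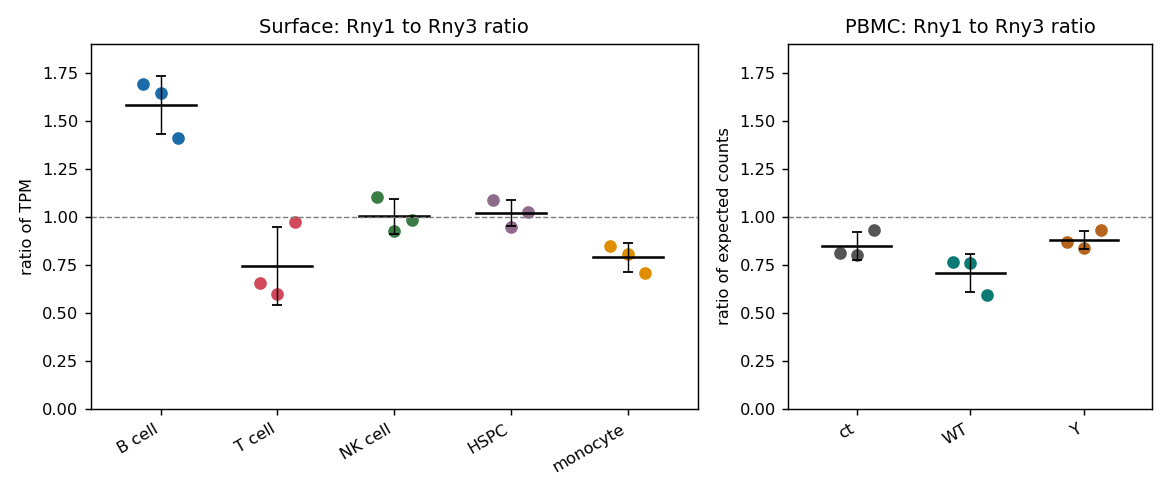
Ratio of Rny1 to Rny3 per library, from TPM on the surface (left) and from expected counts in PBMCs (right), with the dashed line at equal values. Points are libraries, wide bars means and thin bars ± SD (n = 3). All 3 B cell libraries lie above every other surface library, and all 3 WT libraries below every other PBMC library.

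Ssb was scarce on the surface. It stood at 12.2, 13.7 and 18.0 TPM in monocytes, and at 0.762, 1.26 and 1.42 TPM in NK cells. HSPCs gave 0.590, 1.16 and 0.854 TPM, B cells 1.07, 0.470 and 0.399 TPM, and T cells 0.275, 0.557 and 0.474 TPM. The monocyte libraries were apart from the rest. T cells lay below NK cells and HSPCs and overlapped only B cells, and B cells, NK cells and HSPCs overlapped each other. None of the 15 libraries reached 50 TPM, a level that both Y RNAs passed in all 15. Per length, Rny1 was between 122 and 2364 times as abundant as Ssb in a library, with the smallest values in monocytes.

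By mean, T cells were lowest and monocytes 33.6 times as high. The only step in the order that passed was that from NK cells to monocytes, with a difference of -2.86 for NK cells less monocytes (SE 0.199, adjusted p = 5.37e-09). The steps between B cells and T cells (0.18, 95% interval -0.25 to 0.61), B cells and HSPCs (-0.19, -0.62 to 0.24) and NK cells and HSPCs (0.20, -0.23 to 0.63, 17.8% of genes called) did not pass. Other scalings moved these steps, and B cells less HSPCs passed with -1.39 when rescaled, -0.52 under quantile normalization and -1.11 relative to protein-coding TPM. NK cells less HSPCs turned to -0.997, which passed, when rescaled, and to -0.23 and -0.13 on the other scales. B cells less T cells turned to -0.66 (adjusted p = 0.0431) relative to protein-coding TPM and to -0.23 under quantile normalization. Against the mean of the other types, Ssb was higher in monocytes by 3.15 (SE 0.158, adjusted p = 7.71e-11), above the median of all genes with and without the filter on low values. For the remaining types the differences were -1.14 in T cells, -0.91 in B cells, -0.67 in HSPCs and -0.43 in NK cells, all called, each set against a mean that held monocytes. That of NK cells was lost with no filter (adjusted p = 0.0836), with a pseudocount of 0.1 and without any 1 of 9 libraries, B cell replicate 1, T cell replicates 2 and 3, NK cell replicates 1 and 2, HSPC replicates 2 and 3 and monocyte replicates 2 and 3, with differences of -0.47 to -0.29.
Without the monocyte libraries none of these 4 was called, and the signs of HSPCs (0.12) and NK cells (0.39) turned positive. Quantile normalization also turned HSPCs, to 0.20, and left 0.48 in monocytes.

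Ssb summed over all its transcripts was also set relative to protein-coding TPM, of which monocytes held more. It came to 83.0 ± 15.1 per 1000000 in monocytes, 54.6 ± 4.64 in HSPCs, 49.8 ± 1.73 in NK cells, 39.6 ± 3.00 in T cells and 25.7 ± 9.91 in B cells. On this scale the monocyte contrast was 1.01 (adjusted p = 0.000441), the B cell contrast -1.11 (adjusted p = 0.000281), and the others were not called, with HSPCs at 0.28 and NK cells at 0.12. One transcript, Ssb-201, held between 68.3% and 95.7% of Ssb TPM, and between 2 and 4 of the 6 transcripts were above 0 in a library. Ssb-203, a transcript annotated for nonsense-mediated decay and singled out after its values were seen, gave 3.87 and 3.43 TPM in monocyte replicates 1 and 3, was at 0 in monocyte replicate 2, and reached 0.0626 TPM in 1 T cell library and 0 elsewhere. Ssb-201 held 68.3% and 68.5% of Ssb TPM in monocyte replicates 1 and 3, and 92.0% in replicate 2. The values relative to protein-coding TPM include Ssb-203, and its part in the monocyte contrast was not tested.

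The pattern of the Y RNAs over the 15 libraries was compared with that of 1343 genes above 50 TPM in at least 1 library, together with Ssb. Rny1 was most like Rny3 (Pearson's r = 0.953 on log2(TPM + 1), n = 15 libraries), then B2m, the light chain of MHC class I (r = 0.952), and the mitochondrial tRNA mt-Tf (r = 0.926). Rny3 was most like Rny1, then the mitochondrial tRNAs mt-Tg (r = 0.951) and mt-Tm (r = 0.950). Ssb was less like the Y RNAs (r = 0.680 with Rny1 and 0.651 with Rny3) than like Hnrnpd (r = 0.996), an RNA-binding protein, the ATP synthase subunit Atp5pb (r = 0.995) and the lysosomal protein Lamp2 (r = 0.994), all at least 41.8 TPM in every monocyte library and at most 6.48 TPM elsewhere. These 3 genes passed the 50 TPM limit through monocytes alone, as did 801 of the 1344 genes above it, so that a likeness with Ssb, itself highest in monocytes, was favoured by the limit. These values are descriptions, since the points share cell types, library makeup and, for monocytes, a platform.

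Genes around the Y RNAs were taken from lists. All values are of the RNA of these genes, and amounts of their proteins were not measured. Of 18 genes whose products bind Y RNAs, 16 were tested on the surface, and these 16 were called higher in monocytes with a median of 2.50, beside 2.21 for all genes tested and 89.3% of genes called higher. The filter on low values was passed through monocytes alone by 3 of these 16 genes, and of the lists that follow by 2 of 5, 12 of 23 and 3 of 9, so that such members had to be high there. Each other type was set against a mean that held monocytes, so the filter favoured lower calls of such members there too. The lists were not run without monocytes. In T cells 15 of them were lower (median -1.29, all genes -0.83, 83.5% called lower), in HSPCs 10 were lower and 1 higher (81.4% of genes called lower), in B cells 7 were lower (54.4%) and in NK cells 4 (39.8%). Ro60, the gene of the main partner protein of Y RNAs, stood at 1.43, 1.14 and 1.47 TPM in monocytes and at no more than 0.143 TPM in any of the other 12 libraries, and its difference in monocytes was 1.152 (SE 0.0545). As it passed the filter through the monocyte libraries alone, it had to differ there, and this is a description. The cold-shock protein gene Ybx3 rose in monocytes by 3.72 and Syncrip by 3.10. Cpsf2, of the cleavage and polyadenylation complex, gave 2.28, again as a description, since it too passed the filter through monocytes alone. Under quantile normalization Ro60 gave -0.01 in monocytes.

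La-related proteins share the La module. Of 6, 5 were tested, and 5 were higher in monocytes (median 2.76), among them Larp4b by 3.07 and Larp1 by 2.93. Larp7, which holds 7SK RNA, and Larp1b, at 2.49 and 2.45, were the 2 that passed the filter through monocytes alone. The 5 were lower in T cells (median -1.25), 4 in B cells, 2 in NK cells and 3 in HSPCs. The means these types were set against held monocytes, so the filter favoured lower calls of Larp7 and Larp1b as well. RNA polymerase III and the factors of its Y RNA type promoters gave 23 of 23 tested genes higher in monocytes. Their median of 1.95 lay below that of all genes. Lower were 22 in T cells, 11 in NK cells, 19 in HSPCs and 10 in B cells, with 1 higher in B cells. As 12 of the 23 passed the filter through monocytes alone, it favoured lower calls in those types too. In B cells 2 were higher and 1 lower when rescaled, and 6 higher and 0 lower under quantile normalization. These scales called 7572 and 6264 of all genes in B cells, in either direction. Polr1d rose by 3.16 in monocytes and was lower in the remaining 4 contrasts on the deposited scale. In HSPCs it was called higher when rescaled (0.65, adjusted p = 0.0249) and under quantile normalization (0.19, adjusted p = 0.0222). In B cells it was called on neither of these scales (adjusted p = 0.411 and 0.571). Snapc5 (2.99), Bdp1 (2.66) and Crcp (2.64) were above 1 TPM in none of the other 12 libraries, so that the filter fixed their direction in monocytes, and these values are a description. Of 9 genes for trimming, tailing and export of small RNA, the 9 tested were higher in monocytes (median 2.19) and lower in T cells (median -0.78), with Exosc10 at 2.56, Dis3l at 2.52 and Xpo5, the exporter of hairpin RNA, at 2.14 in monocytes, and Toe1, which passed the filter through monocytes alone, at 2.60. These counts stand beside 89.3% of all genes called higher in monocytes, and 83.5% called lower in T cells, 81.4% in HSPCs, 54.4% in B cells and 39.8% in NK cells, and they depended on the scale. Rescaled without rRNA and the 3 same-valued transcripts, the monocyte and T cell medians of these 4 lists kept their signs, whereas in HSPCs all 4 turned positive (0.36 to 0.84). The median of all genes in HSPCs turned positive as well, from -0.67 to 0.20, and 7095 genes were called there in either direction. Of the lists, 9 of 17 binding proteins, 4 of 5 La-related proteins, 9 of 24 polymerase III genes and 4 of 9 trimming genes were higher there and none lower. Shares of all genes by direction were worked out on the deposited scale only. Quantile normalization, which sets the median of all genes near 0, left monocyte medians of -0.05 for the binding proteins, 0.22 for the La-related proteins, -0.16 for polymerase III and -0.22 for trimming and export, where Xpo5 and Exosc10 turned to -0.29 and -0.22. Its monocyte counts were 4 higher and 4 lower for the binding proteins, 1 and 0 for the La-related proteins, 6 and 12 for polymerase III and 0 and 5 for trimming and export, and its T cell counts 1 and 7, 0 and 1, 5 and 5, and 2 and 2 in the same order. Of all 12930 genes, quantile normalization called 7904 in monocytes and 6513 in T cells, in either direction. Ybx3, Syncrip and Polr1d stayed called as higher in monocytes there, and Larp1 (0.03, adjusted p = 0.766), Larp4b (0.27, adjusted p = 0.0520) and Dis3l (0.07, adjusted p = 0.725) did not.

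The other products of RNA polymerase III went both ways in monocytes. In monocytes 3 of 7 were higher, 3 lower and 1 was not called (89.3% of all genes called higher and 4.32% lower), with a median of 0.28 that turned to -0.73 when rescaled and to -0.66 under quantile normalization. The vault RNA Vaultrc5 rose by 2.27 (2872 ± 191 TPM in monocytes), and Rpph1, the RNA of RNase P, by 0.46, which turned to -0.54 and -0.69 on those scales. Rn7s1 and Rn7s2, which encode 7SL RNA and had the same values, fell by 0.86 there and rose by 1.77 in T cells, where they reached 22204 ± 5126 TPM. In HSPCs 6 of 7 were lower (median -1.26, 81.4% of all genes called lower), as both Y RNAs were on the deposited scale. On each of the other 2 scales none was called lower and 3 were called higher. In either direction, 7095 of all genes were called in HSPCs when rescaled and 6465 under quantile normalization. In B cells, where Rny1 and Rny3 were lower, 4 of these 7 were higher (8.38% of all genes), namely Rpph1 by 1.11, Vaultrc5 by 0.66 and the 7SL pair by 0.64, and none was lower. The 7SL pair turned to -0.61 in B cells under quantile normalization, while Rpph1 and Vaultrc5 stayed higher on both scales.

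Total RNA of PBMCs was then used to ask whether the Y RNAs and Ssb differed between ct, WT and Y. The libraries held between 4686426 and 9055797 expected counts, of which the rRNA gene CT010467.1 took between 50.5% and 57.0%. The Y RNAs together made up between 0.0284% and 0.0552% of counts and ranked between 106 and 212 among all genes.

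Rny1 gave expected counts of 1344, 1006 and 2087 for ct, of 1079, 1041 and 956.1 for WT, and of 813.2, 1282 and 1393 for Y. As normalized counts in 1000000 (CPM) these were 159.8, 150.8 and 247.6 for ct, 117.7, 131.9 and 135.2 for WT, and 177.4, 166.8 and 179.8 for Y. The 3 WT libraries were the lowest of the 9 and did not overlap either group, and ct replicate 3 was the highest. By edgeR's quasi-likelihood test with Benjamini-Hochberg adjustment over 11635 genes, WT lay at -0.54 against ct (SE 0.144, unadjusted p = 0.00181, adjusted p = 0.0675) and Y at 0.45 against WT (SE 0.145, unadjusted p = 0.00715, adjusted p = 0.202), neither of which passed, in comparisons that called 2.36% and 1.25% of genes. DESeq2 gave an adjusted p of 0.0252 for WT against ct, and edgeR passed it too with no filter on low counts (3.21e-05), with a replicate block (0.0460) and without ct replicate 1 (0.0468) or 2 (0.0256), but gave -0.27 without ct replicate 3. Y against WT passed with no filter (0.00439) and without ct replicate 3 (0.0114). Y against ct was -0.09 (95% interval -0.40 to 0.21, adjusted p = 0.922, 0.696% of genes called), and 0.18 without ct replicate 3.

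Rny3 gave CPM of 197.1, 187.8 and 265.5 for ct, of 154.1, 173.4 and 229.1 for WT, and of 204.5, 199.0 and 192.9 for Y, so that WT overlapped both groups. That overlap rests on WT replicate 3, whose TMM normalization factor of 0.783 stands apart from the 0.972 to 1.10 of the other 8 libraries. In 1000000 total counts, without that factor, Rny3 came to between 167.9 and 178.9 in WT, below the lowest of ct (183.6) and of Y (199.9). WT against ct was -0.23 (95% interval -0.53 to 0.07, adjusted p = 0.590), Y against ct -0.13 (-0.43 to 0.17, adjusted p = 0.892) and Y against WT 0.10 (-0.20 to 0.40, adjusted p = 0.866). Ssb rested on few reads, between 28.9 and 65.8 expected counts in a library, where 29 counts have an exact Poisson interval of 19.4 to 41.6 for counting error alone. Its CPM were 7.85, 7.49 and 6.17 for ct, 6.33, 6.84 and 4.10 for WT and 6.33, 5.47 and 6.84 for Y. The groups overlapped, and the differences of -0.30 for WT against ct, -0.21 for Y against ct and 0.09 for Y against WT had intervals of -0.69 to 0.09, -0.61 to 0.20 and -0.32 to 0.51.

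The ratio of Rny1 to Rny3 in expected counts was 0.811, 0.803 and 0.933 for ct, 0.764, 0.760 and 0.590 for WT and 0.868, 0.838 and 0.932 for Y. Every WT library lay below every library of the other groups. As a share of all Y RNA counts, Rny1 came to 37.1% in WT replicate 3 (exact Clopper-Pearson 95% interval 35.2 to 39.0, counting error only) and to 48.3% in ct replicate 3 (46.8 to 49.8). The mean log2 ratio of WT differed by -0.28 from ct and Y differed by 0.33 from WT, each with an exact permutation p of 0.1, the smallest that 3 against 3 libraries allow. Y and ct differed by 0.05 (exact p = 0.600). Over the 3 groups at once, an exact permutation test of the spread between group means over 1680 assignments gave p = 0.0286, which rose to 0.171 without WT replicate 3, where the largest distance between group means shrank from 0.33 to 0.21. It also missed the threshold without ct replicate 1 or 2 and without any 1 of the Y libraries (p of 0.05 to 0.111 by the same exact test).

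RSEM gave the Y RNAs very short effective lengths that differed between libraries, from 14.8 to 23.6 bases for Rny1 and from 11.02 to 17.9 for Rny3, with WT replicates 2 and 3 the highest. The median fragment length over genes, taken from the deposited lengths, ran from 112.6 to 130.2 bases in ct, from 104.5 to 120.3 in WT and from 112.1 to 117.0 in Y. The part of fragment length in the lower ratio of WT was not tested. On the deposited TPM, which divide by these lengths, the ratios were 0.590, 0.597 and 0.677 for ct, 0.559, 0.576 and 0.438 for WT and 0.626, 0.599 and 0.675 for Y, again with every WT library below every other. Counting Gm26168 with Rny1 left the differences within 0.01.

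In PBMCs, Ro60 was the gene of the lists that changed. It stood at 14.4, 14.8 and 11.2 CPM for ct, 7.31, 7.85 and 7.35 for WT and 10.9, 14.7 and 17.4 for Y, from 50 to 135 counts in a library. WT did not overlap the other groups. Ro60 was lower in WT than in ct, at -0.83 (SE 0.159, adjusted p = 0.00761, 1.60% of genes called lower) and higher in Y than in WT by 0.97 (SE 0.161, adjusted p = 0.00416, or 0.0638 without Y replicate 3, 0.438% of genes called higher), while Y against ct gave 0.14 (adjusted p = 0.884). Ro60 was thus 1 of 15 tested binding proteins called in each of these contrasts, and no other gene of the lists was called, of 5 La-related proteins, 24 polymerase III genes, 9 genes of trimming and export and 7 other polymerase III products. List medians lay between -0.16 and 0.07, beside medians of -0.0045 to 0.0040 for all genes. Ybx3 at -0.68 (adjusted p = 0.190) and Ncl, which encodes nucleolin, at 0.44 (adjusted p = 0.132) were the largest of the other binding proteins in Y against ct, and Larp7 gave -0.75 in WT against ct (adjusted p = 0.498). The plot of CPM by group shows the members and Ro60.

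**Figure D5:**
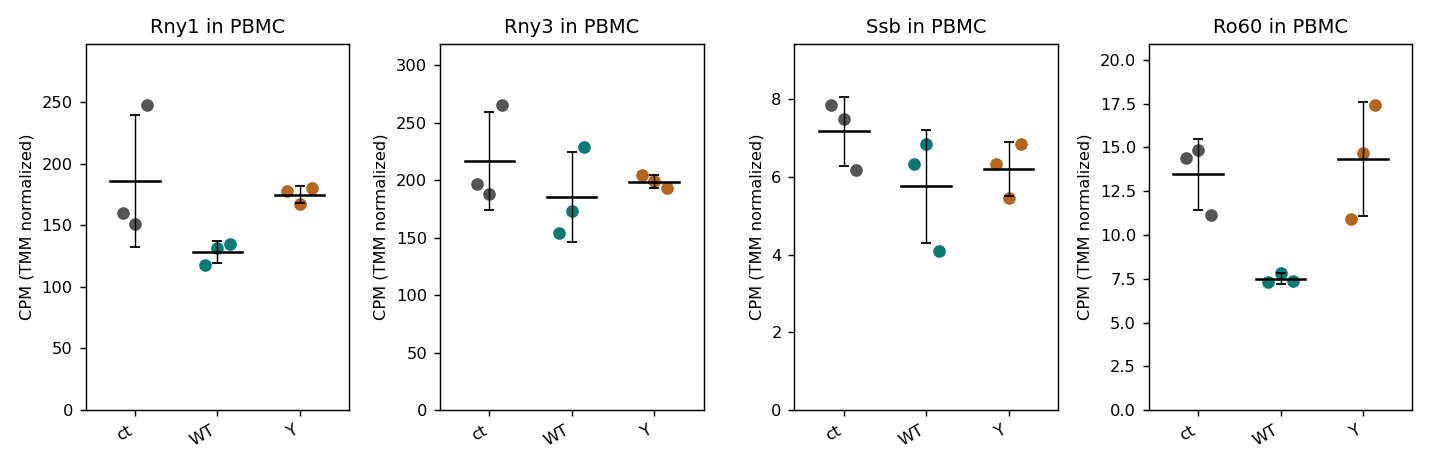
CPM after TMM normalization of Rny1, Rny3, Ssb and Ro60 in each PBMC library, by treatment group, with axes from 0. Points are libraries, wide bars means and thin bars ± SD (n = 3). The 3 WT libraries are the lowest of all for Rny1 and Ro60 and overlap the other groups for Rny3, through WT replicate 3, and Ssb.

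Markers of other blood cells moved between the groups as well. Summed over 5 erythroid genes, CPM ran from 6650 to 8084 in ct, from 3869 to 5021 in WT and from 4872 to 4899 in Y, and over 4 platelet genes from 382.2 to 453.7, from 215.7 to 291.1 and from 306.4 to 345.3. All of these genes were above 0 in each group. The 6 neutrophil markers summed to between 187.6 and 197.7 CPM in Y, and to at most 85.7 in ct and 64.7 in WT, with Elane at 0 in ct and Y. The 6 HSPC markers ran from 24.8 to 28.1 CPM in ct, above the 14.1 to 20.8 of WT and the 18.1 to 22.2 of Y, and all 6 were above 0 in each group. Platelet sums were lowest in WT, as Rny1 and Ro60 were, and the part of all these markers in the differences was not tested.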

How the data were processed

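Surface RNA was measured in 15 libraries and PBMC RNA in 9. For the surface the authors trimmed reads with Trimmomatic, removed duplicates and deposited TPM per transcript from Kallisto, without depth. The murine transcript set is not given in the sources used here. PBMC tables hold RSEM's expected counts, which the authors deposited with TPM and effective lengths. The submitters' processing notes list Trim Galore, cutadapt, STAR, featureCounts, kallisto, RSEM and the builds mm10 and, for PBMCs, hg38, with no roles. PBMC gene identifiers match GENCODE M21 (GRCm38), from which positions and sequences were read.

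TPM were summed by gene name, log2(TPM + 1) transformed and fitted with limma 3.58.1 (R 4.3.3, mean-variance trend) in one model of 15 libraries, for genes above 1 TPM in at least 3 libraries. The added 1 makes the fold changes of scarce genes such as Ssb and Ro60 too small. Expected counts were rounded and tested with edgeR 4.0.16 (TMM, filterByExpr, quasi-likelihood). SEs and intervals of edgeR values were derived from its F statistic. Benjamini-Hochberg adjustment covered all genes tested, and calls needed an adjusted p below 0.05. Ratios were tested by exact permutation over libraries, two-sided for 2 groups. The fits were tried on simulated data in which few genes changed, in 1 group. That setting lacks the unequal makeup of the surface libraries, so it cannot vouch for the fits there. Alternatives were other pseudocounts, filters and scalings, DESeq2 1.42.0, a replicate block and leaving out each library. The PBMC ratio from TPM, the ratio with Gm26168 added, and the other scales for gene lists, were chosen after seeing the data. Members, lists and tests were chosen with earlier results of these data known. The text names Rny1, Rny3, Ssb and Ro60 always, up to 4 genes of each list that were called in most contrasts, ties by size, and the 3 genes most like each member. PBMC replicates of a group differed by more than counting noise (chi-square per gene at least 4.74). The authors' own comparisons were not used.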

Additional observations from a re-analysis of the deposited data

How the results depend on the processing

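Values are log2 differences. Of the comparisons of 1 cell type with the other 4, those of Rny3 in B cells and of Rny1, Rny3 and Ssb in monocytes kept direction and call under every alternative that gave a value for them. The scale relative to snRNA was run for the Y RNAs only, and that relative to protein-coding RNA for Ssb and Ro60 only. Rescaling to TPM other than rRNA and the same-valued transcripts gave, for Rny1, -0.55 in T cells, 0.25 in HSPCs, -0.85 for B cells less HSPCs, -0.21 for B cells less T cells, -0.96 for T cells less NK cells and 0.14 for NK cells less monocytes. It gave, for Rny3, -0.0040 in T cells, 0.18 in HSPCs, -1.48 for B cells less HSPCs, -0.15 for T cells less HSPCs and -0.21, no longer called, for NK cells less monocytes. For Ssb it gave -0.58 in NK cells, 0.66 in HSPCs, -1.39 for B cells less HSPCs and -0.997 for NK cells less HSPCs, and for Ro60 0.25 in HSPCs.

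Quantile normalization gave, for Rny1, -1.10 in T cells, 0.29 in NK cells, 0.37 in HSPCs, -0.91 for B cells less HSPCs, 0.26 for B cells less T cells and -1.11 for T cells less NK cells. For Rny3 it gave -0.48 in T cells, 0.29 in NK cells, 0.27 in HSPCs, -1.64 for B cells less HSPCs and -0.60 for T cells less HSPCs. For Ssb it gave -0.16 in T cells, -0.083 in NK cells, 0.20 in HSPCs, -0.23 for B cells less T cells, -0.52 for B cells less HSPCs and -0.23 for NK cells less HSPCs, and for Ro60 -0.011 in monocytes, 0.13 in HSPCs and 0.0071 in B cells.

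Relative to snRNA, Rny1 gave -1.28 in T cells, 0.37 in NK cells, 0.34 in HSPCs, -1.41 for B cells less HSPCs, -0.11 for B cells less T cells, -1.32 for T cells less NK cells and -1.31 for NK cells less monocytes, and Rny3 gave -0.73 in T cells, 0.34 in NK cells, 0.27 in HSPCs, -2.04 for B cells less HSPCs and -0.80 for T cells less HSPCs. Relative to protein-coding RNA, Ssb gave -0.29 in T cells, 0.12 in NK cells, 0.28 in HSPCs, -0.66 for B cells less T cells, -1.11 for B cells less HSPCs and -0.13 for NK cells less HSPCs, and Ro60 0.82 in HSPCs.

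Without the 3 monocyte libraries, Rny1 gave -0.65 in B cells and -0.82 for B cells less T cells, both no longer called, Ssb 0.39 in NK cells, 0.12 in HSPCs, -0.37 in T cells and -0.13 in B cells, none called, and the ratio -0.073 in NK cells, -0.038 in HSPCs and, passing, -0.69 in T cells. A pseudocount of 10 ended the calls of Rny3 in T cells (0.58) and of Rny1 in B cells less T cells (-0.81). One of 0.1 ended that of Ssb in NK cells (-0.30) and made Rny1 in T cells less NK cells pass (-0.71), as did genes above 50 TPM (-0.71), where Ssb gave no value. With no filter, 4 calls ended at the same differences, those of Rny3 in T cells (0.59) and NK cells less monocytes (-0.78), Rny1 in B cells less T cells (-0.82) and Ssb in NK cells (-0.43). Called genes then numbered 6 and 7 for polymerase III in B and NK cells, 2 for binding proteins in NK cells, 2 of these in Y against WT and 2 in Y against ct, and 1 other polymerase III product in Y against ct.

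Medians of the gene lists, recomputed on 2 scales chosen after seeing the data, reversed as follows. Rescaling gave, in HSPCs, 0.84 for La-related proteins, 0.36 for polymerase III, 0.70 for binding proteins and 0.59 for trimming, and for other polymerase III products -0.53 in T cells and -0.73 in monocytes. The rescaled median of all genes in HSPCs turned positive as well, to 0.20. Quantile normalization gave, in HSPCs in the same order, 0.32, 0.0052, 0.28 and 0.17, and 0.030 for other polymerase III products, which came to -0.14 in NK cells, -0.35 in T cells and -0.66 in monocytes. It also gave 0.098 for polymerase III and 0.11 for trimming in B cells, 0.035 for polymerase III in T cells, and in monocytes -0.16 for polymerase III, -0.045 for binding proteins and -0.22 for trimming.

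Leaving out libraries one by one gave, for Rny1, -0.22 to 0.29 in T cells, -1.06 to -0.55 for B cells less T cells and -0.98 to -0.47 for T cells less NK cells. For Rny3 it gave 0.19 to 0.83 in T cells, 0.79 to 1.08 in NK cells and -0.91 to -0.61 for NK cells less monocytes, for Ssb -0.52 to -0.29 in NK cells, and for the ratio 0.80 to 0.94 in B cells and -0.038 to 0.10 in NK cells. In PBMCs it gave, for Rny1, -0.67 to -0.27 in WT against ct, -0.22 to 0.18 in Y against ct and 0.39 to 0.48 in Y against WT, for Rny3 -0.22 to 0.054 in Y against ct and -0.017 to 0.28 in Y against WT, for Ssb -0.085 to 0.22 in Y against WT, for Ro60 -0.026 to 0.26 in Y against ct, and 0.21 to 0.39 for the spread of ratios.

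Rny1 in WT against ct gave -0.53 with DESeq2, -0.54 with no filter and -0.51 with a replicate block (adjusted p = 0.0460), and Y against WT 0.42 with no filter, all of which passed. Deviations of same-numbered libraries correlated over 0.1 in 6 of 30 surface pairs (highest 0.472, against 0.270 for different numbers) and 0 of 9 PBMC pairs, and 11 of 15 surface and 3 of 9 PBMC libraries correlated best with their own number. As not every pair was over 0.1, the numbers were not taken as pairing the libraries, and the replicate block changed no other call of these genes or of the surface ratios, while the PBMC ratios were not run with it (genes called in WT against ct numbered 234 with the block).

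Counts of all genes called moved by over 1.5 times as well. For WT against ct 275 were called, 170 by DESeq2 and 484 with no filter, for Y against WT 146, 96 and 367, and for Y against ct 81 and, with no filter, 257. Without monocytes, 3352 were called in place of 8123 for B cells, 4410 in place of 11447 for T cells, 1748 in place of 5880 for NK cells and 2935 in place of 10729 for HSPCs. Leaving out single libraries gave 4698 to 8791 for B cells (at most 4774 without any 1 monocyte library), 2543 to 6619 for NK cells (lowest without a monocyte library, 3497 without NK cell replicate 1), 168 to 255 for WT against ct (lowest without WT replicate 2), 34 to 167 for Y against ct (highest without ct replicate 3, lowest without a Y library) and 52 to 170 for Y against WT (82 or fewer without WT replicate 2 or 3 or a Y library). Quantile normalization called 6513 for T cells, 3594 for NK cells, 6465 for HSPCs and 7904, not 12109, for monocytes, where no filter called 19134. A pseudocount of 0.1 called 2340 for NK cells, and rescaling 7095 for HSPCs. Causes of these changes were not tested. The unknown depth of the surface tables, the low level of Ssb and 3 libraries a group limit all of these values.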
